A study of Homo sapiens with 12 samples.

Results

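The messenger RNA of H446 cells given only the solvent dimethyl sulfoxide (DMSO) was described in 3 libraries, DMSO 1, DMSO 2 and DMSO 3, which are all the DMSO messenger libraries among the 12 libraries of the series. They were chosen by their labels. H446 is a widely used cell line from a human small cell lung cancer, grown here in DMEM with fetal bovine serum, penicillin and streptomycin. The DMSO cells received the volume of solvent used for an 8 h treatment with 40 µM caffeic acid phenethyl ester, and carry no engineered change per the labels. The labels do not say whether the 3 libraries came from separate cultures, and all come from 1 line. DMSO 1 and DMSO 2 give the main values and DMSO 3, which stood apart, is given beside them. Where 3 values stand together they are in the order DMSO 1, DMSO 2 and DMSO 3. No comparison with the treated cells is made.

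Small cell lung cancer is a fast-growing tumour that usually keeps features of the pulmonary neuroendocrine cell, such as hormone-filled granules and neuron-like adhesion proteins. Its tumours are commonly sorted by the regulator they express most, among them NEUROD1, POU2F3 (the regulator of tuft cells) and YAP1 (a coactivator of the Hippo pathway). Lines are also divided into a classic form and a variant form, and H446 has been described as a variant line with amplified MYC that lacks DOPA decarboxylase and bombesin-like peptide but keeps neuron-specific enolase and brain creatine kinase. Loss of RB1 function is a hallmark of the disease.

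Levels are in TPM, the number of transcripts scaled to transcript length and to the library, so that different genes can be set side by side, and a gene is called present at a mean of 1 TPM or more in DMSO 1 and DMSO 2. Estimated counts summed to between 17770295 and 20917508 per library, spread over 34886 symbols. A count of 0 allows up to 3 counts, or 0.143 to 0.169 CPM (counts scaled to the library total, not to length), for counting error only. Among the 8766 genes at 10 TPM or more, DMSO 1 and DMSO 2 differed by a median of 1.07-fold and 95% of genes by at most 1.33-fold. The squared deviation of their counts, over the sampling variance, averaged 5.00 per gene with a median of 1.09. Under counting error alone the median squared deviation lies well below the sampling variance, so 1.09 also exceeds counting error. DMSO 3 differed from DMSO 1 by a median of 1.96-fold, with 4075 of 8751 genes lower by 2-fold or more and 168 higher by as much. These genes, like those called present, were chosen by DMSO 1 and DMSO 2 alone. That choice favours lower values in DMSO 3, so such counts are in part set by it. A low value of a symbol need not mean a rare transcript here: ACTB, beta-actin, was listed at 40.4 and 43.3 TPM (21.6 in DMSO 3), while its near-identical relative ACTG1 measured 5042 and 5072 TPM (3827 in DMSO 3).

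Of the 34886 symbols 13161 were present (37.7%), with 11275 at 1 TPM or more in DMSO 3, and 1647 (4.72%) reached 100 TPM. The symbols include pseudogenes and loci without gene names, and RefSeq held 26157 of them. Among the 10692 with a single RefSeq promoter a smaller part was under 1 TPM, with 1953 listed at 0 and 2069 above 0. Of the rest 1825 were at 1 to under 10 TPM, 3920 at 10 to under 100 TPM and 925 at 100 TPM or more. The 37.7% is thus a low bar for lists of known genes, and a list near it is not read as typical of such genes. A list share above 37.7% need not exceed the share of known genes that is present. The most abundant messengers encoded respiratory chain subunits of the mitochondrial genome, ferritin and the translation machinery. MT-CO2, a subunit of cytochrome oxidase, led with 13501 and 13903 TPM (10825 in DMSO 3), followed by FTH1, the heavy chain of the iron store ferritin, with 12999.9 and 13803 TPM (23552 in DMSO 3). MT-CO3 (10134, 10169 and 6691 TPM), the elongation factor EEF1A1 (7199, 7619 and 6659.9 TPM) and MT-ND4L (7769, 6397 and 2051 TPM) completed the 5 highest. The next mitochondrial or ribosomal symbols, MT-CO1, RPL12, RPL35, RPL41 and MT-ND1, held places 6 to 10. The remaining 10 of the first 20 were ACTG1, MT-ND4, GAPDH, RPL4, RPL7A, MT-ND3, PPIA, TMSB10, B2M and FTL, at 5057 to 4137 TPM in the mean of DMSO 1 and DMSO 2. The 20 together held 13.4% of the listed TPM in both main libraries and 15.7% in DMSO 3. The 13 mitochondrial messengers took 7.51% and 7.13% (4.34% in DMSO 3) and 78 ribosomal protein genes 13.6% and 13.9% (23.9% in DMSO 3). The 444 most abundant symbols held 50% of the listed TPM in the mean of DMSO 1 and DMSO 2.

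YAP1 was the abundant one of the subtype regulators described here. It measured 67.6 TPM in DMSO 1, 73.6 TPM in DMSO 2 and 14.3 TPM in DMSO 3, rank 2418 by the mean of the first 2 libraries, from 3214, 3478 and 1221 counts. NEUROD1, a neural bHLH factor of neuroendocrine tumours, had 0 counts in all 3 libraries. ATOH1, a related bHLH factor found in some tumours, had 1 count in DMSO 1 and 0 in the others. POU2F3 was at 0.114 and 0.0618 TPM (0.0392 in DMSO 3), from 4, 2 and 2 counts. YAP1 was the member of this group that departed most in DMSO 3, where it was lower than in both other libraries but still above NEUROD1, ATOH1 and POU2F3.

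The stretch just before the start site is shown for 4 genes, a pair under 1 TPM and an abundant pair, to set their CG content side by side. NEUROD1 and CHGA, the granule protein chromogranin A, form the low pair, and YAP1 and CKB, brain creatine kinase, the abundant pair. Each is the 120 bases before the RefSeq start site in GRCh38.p14, 5′ to 3′ on the gene's strand, with capitals marking CG pairs. NEUROD1 lies at chr2:181680518-181680637 (minus strand), YAP1 at chr11:102110327-102110446 (plus), CHGA at chr14:92923030-92923149 (plus) and CKB at chr14:103522831-103522950 (minus).
NEUROD1: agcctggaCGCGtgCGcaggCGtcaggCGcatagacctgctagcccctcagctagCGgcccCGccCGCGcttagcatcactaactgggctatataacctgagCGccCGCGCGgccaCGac
YAP1: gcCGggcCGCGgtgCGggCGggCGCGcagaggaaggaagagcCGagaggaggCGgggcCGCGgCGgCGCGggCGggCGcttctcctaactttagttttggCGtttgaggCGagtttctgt
CHGA: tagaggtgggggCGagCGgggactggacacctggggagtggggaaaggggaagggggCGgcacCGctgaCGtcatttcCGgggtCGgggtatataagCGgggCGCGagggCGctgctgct
CKB: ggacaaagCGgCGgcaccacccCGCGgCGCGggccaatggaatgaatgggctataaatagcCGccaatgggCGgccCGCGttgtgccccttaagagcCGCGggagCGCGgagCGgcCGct
The printed stretches held 14, 18, 11 and 16 CG pairs. In the full windows of 300 bases (250 before and 50 after the start) the counts were 31, 40, 24 and 36. Over all 10692 symbols with a single promoter in the RefSeq table the median number of CG pairs rose with the level, from 5 for symbols listed at 0 and 11 for those above 0 but under 1 TPM to 25 at 1 to under 10 TPM and 28 at both 10 to under 100 TPM and 100 TPM or more. The 12 neuroendocrine-high genes with such a window had a median of 23, and the 11 neuroendocrine-low genes 20. The motif TATAAA, searched on the gene's strand from 40 to 16 bases before the start, stood in 449 of all windows (4.20%), in 11.3% of those of symbols listed at 0, 5.7% above 0 but under 1 TPM, 2.08% at 1 to under 10 TPM, 1.07% at 10 to under 100 TPM and 3.35% at 100 TPM or more. These are descriptions of sequence, and a match is no site.

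MYC, the transcription factor that drives growth and ribosome production, was the abundant member of its family. It measured 412 TPM in DMSO 1, 412 TPM in DMSO 2 and 291 TPM in DMSO 3, rank 293 of all symbols. On the CPM scale, which is not divided by length, MYC was at 516, 534 and 531, so the lower value of DMSO 3 appears in TPM and not in CPM. The source of that difference was not tested. MAX, the partner that MYC needs to bind DNA, was at 71.9 and 78.2 TPM (42.5 in DMSO 3), 5.73 and 5.27 times under MYC. MYCL, the relative amplified in many classic lines, was at 0.162 and 0.207 TPM (0.105 in DMSO 3), and MYCN had 0 counts in all 3 libraries. PVT1, the neighbour of MYC, was not found among the symbols.

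The biochemical markers of the variant form fell into a present and an absent pair. CKB, brain creatine kinase, measured 368 TPM in DMSO 1, 383 TPM in DMSO 2 and 565 TPM in DMSO 3 at rank 332, and ENO2, neuron-specific enolase, 31.1 and 28.7 TPM (18.1 in DMSO 3). DDC, which makes dopamine and serotonin, had 1, 0 and 2 counts, and GRP, the human bombesin-like peptide, had 0 in all 3. CKB stood 11.8 and 13.3 times above ENO2, and 31.3 times in DMSO 3, where CKB was higher and ENO2 lower than in the other libraries.

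**Figure D1:**
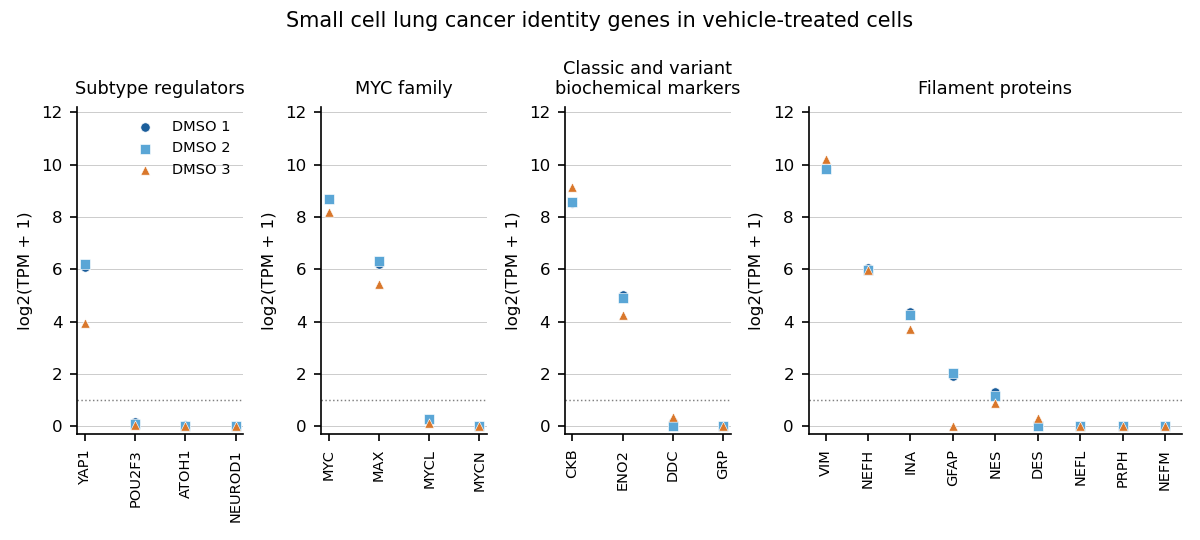
Levels of subtype regulators, MYC family members, biochemical markers and filament genes as log2(TPM + 1), 1 point per library (circle DMSO 1, square DMSO 2, triangle DMSO 3), with a dotted line at 1 TPM. YAP1, MYC, CKB, ENO2 and VIM lie well above the line, while NEUROD1, MYCN and GRP lie at 0.

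Across 25 genes known to be high in neuroendocrine lung cancer lines only 3 were present (12%, against 37.7% of all symbols), and none reached 10 TPM. These were CRMP1, an axon guidance phosphoprotein (8.86, 8.84 and 7.64 TPM), SH3GL2, an endocytic endophilin (5.41, 5.46 and 3.05 TPM), and TMSB15A, a thymosin (1.03, 1.24 and 0.499 TPM), which shares most of its sequence with TMSB15B and may share reads with it. The 22 others were under 1 TPM and 6 of them had 0 counts in every library, among them INSM1, BEX1, KIF1A, SYT4 and TFF3. INSM1 is a zinc finger factor used to diagnose neuroendocrine tumours, KIF1A a vesicle motor and SYT4 a vesicle calcium sensor. The diagnostic vesicle protein SYP was at 0.376 and 0.455 TPM (0.376 in DMSO 3). Chromogranins A and B, the core proteins of hormone granules, were at 0 and 0.369 TPM (0.04 in DMSO 3) and at 0.109 and 0.0987 TPM (0 in DMSO 3). The defining markers of the neuroendocrine form were thus under 1 TPM in libraries labelled as small cell lung cancer. Whether fewer cells or less RNA per cell underlie a low value cannot be told apart in bulk RNA, and the identity of the line was not tested.

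All 25 genes known to be high in lines without neuroendocrine features were present (100%, against 37.7% of all symbols). Of these 22 were at 10 TPM or more and 10 at 100 TPM or more. TGFBI, a matrix protein induced by TGF-beta, led with 584 TPM in DMSO 1, 558 TPM in DMSO 2 and 502 TPM in DMSO 3. The calcium-binding S100A16 (469, 481 and 822 TPM) and ANXA1, an annexin of the plasma membrane (454, 446 and 163 TPM), came next. ANXA1 was lower and S100A16 higher in DMSO 3, where S100A16 lay above TGFBI. The interferon-induced IFITM3 (314, 354 and 803 TPM), whose reads may be shared with IFITM2, S100A10 (246, 269 and 489.5 TPM) and PTGES, a prostaglandin synthase (225, 230.5 and 238 TPM), were the next highest. Lower in the list stood CAV1, the coat protein of caveolae (86.5, 92.5 and 50.7 TPM), AHNAK, a giant scaffold protein (94.3, 86.1 and 24.1 TPM), and MYOF, a membrane repair ferlin (101, 95.7 and 28.5 TPM). The growth regulators CCND1, a G1 cyclin (113, 119 and 36.7 TPM), CYR61 (now CCN1), a matricellular target of YAP1 (123, 136 and 74.5 TPM), and TGFBR2, the type 2 TGF-beta receptor (36.7, 36.6 and 13.2 TPM), were present too. The 3 lowest were RAB27B, a vesicle GTPase (4.96, 5.89 and 0.819 TPM), the protease PLAU (2.47, 3.26 and 1.76 TPM) and ARHGDIB (1.31, 0.844 and 1.48 TPM).

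The mean log2(TPM + 1) of the neuroendocrine-low genes exceeded that of the neuroendocrine-high genes by 5.59 in DMSO 1, 5.58 in DMSO 2 and 5.00 in DMSO 3. In each library 22 of the 25 neuroendocrine-low genes lay above the highest neuroendocrine-high gene, CRMP1. The median member of the neuroendocrine-low list was at 86.5, 86.1 and 35.1 TPM, and that of the neuroendocrine-high list at 0.0986, 0.0987 and 0.0162 TPM in the 3 libraries. DMSO 3 was lower than the mean of the others in 18 of the 25 neuroendocrine-low genes, where 82.1% of all present genes were lower. These are descriptions of 1 group, with no test.

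**Figure D2:**
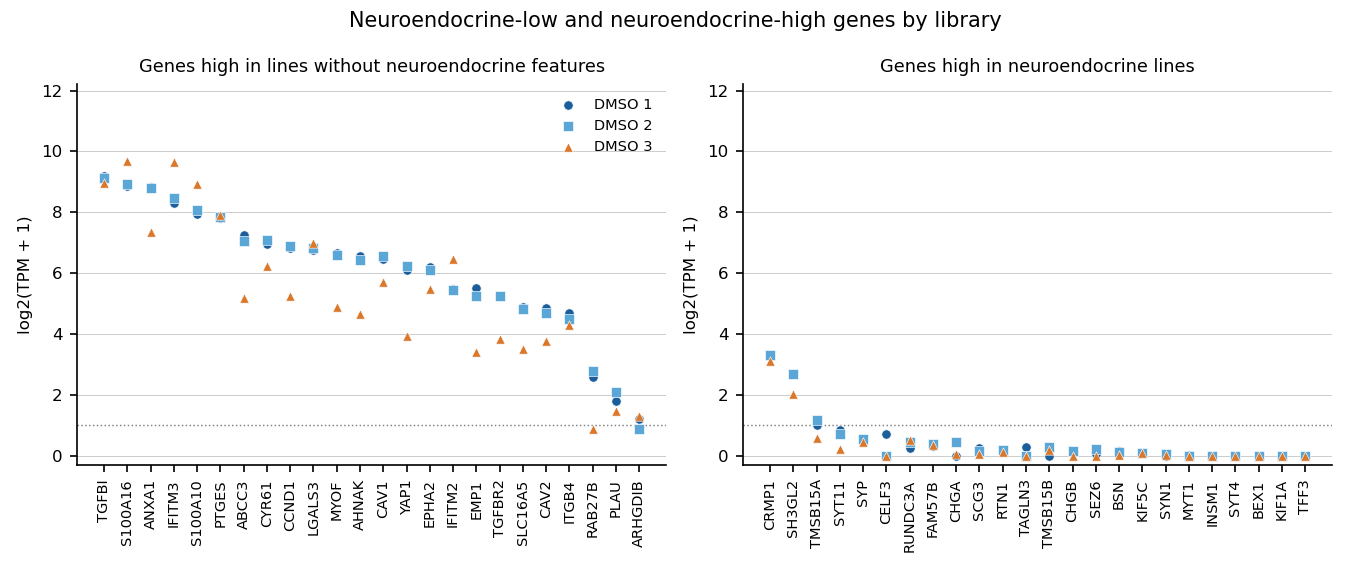
Levels of neuroendocrine-low genes (left) and neuroendocrine-high genes (right), the reported members of each list, as log2(TPM + 1), ordered by the mean of DMSO 1 and DMSO 2, 1 point per library, with a dotted line at 1 TPM. All genes plotted on the left average at least 1 TPM and only CRMP1, SH3GL2 and TMSB15A do so on the right.

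Of 26 granule, vesicle and neuronal genes of regulated secretion 10 were present (38.5%, against 37.7% of all symbols). Among the highest were PAM, which amidates peptide hormones (154, 149 and 58 TPM), and VAMP2, a vesicle SNARE protein (31.4, 28.3 and 17.9 TPM). The prohormone enzymes CPE (21.9, 22.9 and 5.99 TPM) and PCSK1 (8.09, 10.7 and 4.41 TPM) and the chaperone SCG5 (21, 22.8 and 8.65 TPM) were present, as was the neuronal ubiquitin hydrolase UCHL1 (17.7, 17.4 and 24.3 TPM). CPE departed most in DMSO 3. Among the members under 1 TPM the neural adhesion protein NCAM1 had 1, 0 and 0 counts. CADPS, ELAVL3, ELAVL4, PCSK1N and STMN2 had 0 in every library. The 4 members that this list shares with the neuroendocrine-high list, CHGA, CHGB, SCG3 and SYP, were among those under 1 TPM.

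Of 34 neural and endodermal transcription factors 10 were present (29.4%, against 37.7% of all symbols) and 10 had 0 counts in all libraries. ID3 and ID1, inhibitors of bHLH factors, were the highest at 535 and 568 TPM (789.6 in DMSO 3) and 316 and 349 TPM (389.7 in DMSO 3). PAX6, a factor of eye and brain development, came next with 20.5 and 22 TPM (8.03 in DMSO 3), then SOX4 (19.1, 20.5 and 6.75 TPM) and the zinc finger factor ZIC2 (12.7, 9.63 and 5.5 TPM). GATA6 and FOXA1, factors of lung and gut endoderm, were at 6.6 and 5.73 TPM (2.85 in DMSO 3) and 4.81 and 6.98 TPM (1.79 in DMSO 3). ONECUT2, which departed most in DMSO 3, was at 3.92 and 3.93 TPM (0.57 in DMSO 3). NKX2-1, the lung lineage factor that many small cell tumours keep, was under 1 TPM at 0.219 and 0.816 TPM (0.0458 in DMSO 3), SOX2 at 0.0336 and 0.0335 TPM (0 in DMSO 3), and FOXA2, SOX11 and POU4F1 had no counts.

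Of 10 genes of the tuft cell programme 2 were present (20%, against 37.7% of all symbols), a list too short to set apart. These were AVIL, the actin-binding advillin (4.11, 3.56 and 1.88 TPM), and GFI1B, a zinc finger repressor (1.16, 1.45 and 0.51 TPM). The next highest, COLCA2, a POU2F3 coactivator, was at 0.148 and 0.227 TPM (0.211 in DMSO 3). Of the 14 genes of Notch signalling and REST 7 were present (50%, against 37.7% of all symbols). NOTCH2 was the main receptor at 68.9 and 64.2 TPM (13.9 in DMSO 3), with NOTCH3 at 1.64 and 1.37 TPM (0.622 in DMSO 3) and NOTCH1 at 0, 0 and 1 counts. The ligand JAG2 (29.5, 28.1 and 16.2 TPM) stood above JAG1 (1.87, 2.01 and 0.173 TPM). REST, which silences neuronal genes outside neurons, was at 11.8 and 12.6 TPM (2.17 in DMSO 3), and its level in DMSO 3 was under that of the other libraries. The inhibitory ligand DLL3, a drug target in this disease, was at 0.321 and 0.212 TPM (0.741 in DMSO 3) and the Notch target HES1 at 1.17 and 0.879 TPM (0.734 in DMSO 3).

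Of 9 filament genes 5 were present (55.6%, against 37.7% of all symbols) and vimentin was the highest. VIM, the mesenchymal filament vimentin, measured 935 TPM in DMSO 1, 912 TPM in DMSO 2 and 1193 TPM in DMSO 3 at rank 127. NEFH, the heavy neurofilament, was at 66 and 61.3 TPM (61.8 in DMSO 3) and the internexin INA at 19.5 and 18.3 TPM (12.3 in DMSO 3), while NEFL, NEFM and PRPH had 0 counts in all 3 libraries. GFAP, the astrocyte filament, was at 2.83 and 3.11 TPM (0.0108 in DMSO 3) from only 14, 21 and 1 counts. NES, nestin, was at 1.5 and 1.23 TPM (0.867 in DMSO 3) and DES, the muscle filament, at 0.0382 and 0 TPM (0.236 in DMSO 3). GFAP departed most in DMSO 3 among these.

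Of 16 keratins 12 were present (75%, against 37.7% of all symbols) and 4 exceeded 100 TPM. KRT7, the simple-epithelium keratin of lung adenocarcinoma and other glandular tumours, measured 1909.7 TPM in DMSO 1, 1724 TPM in DMSO 2 and 2749.8 TPM in DMSO 3 at rank 66, KRT8 867 and 826 TPM (1493 in DMSO 3) and KRT17, a basal and stress keratin, 712 and 588 TPM (1257 in DMSO 3). KRT18, the partner of KRT8, was at 454 and 464 TPM (1058 in DMSO 3) and departed most in DMSO 3. KRT19 stood far lower at 20.5 and 22.9 TPM (39.1 in DMSO 3), 93.2 and 75.3 times under KRT7, and the basal keratin KRT5 was at 2.04 and 2.59 TPM (0.801 in DMSO 3). KRT7, KRT8, KRT17 and KRT18 were all higher in DMSO 3 than in both other libraries. Keratins have close relatives and processed copies, so reads may be shared among them.

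Of 16 epithelial genes 7 were present (43.8%, against 37.7% of all symbols), with JUP, plakoglobin (69.4, 71.1 and 75.6 TPM), ESRP2, a splicing regulator (40.3, 35.6 and 18.8 TPM), and TJP1, the tight junction scaffold that departed most in DMSO 3 (30.7, 32.8 and 8.37 TPM), the highest. EPCAM, the epithelial adhesion molecule, was at 1.73 and 2.26 TPM (1.16 in DMSO 3). CDH1, E-cadherin, had 5, 9 and 3 counts, and ESRP1 and OVOL1 none. Of 18 mesenchymal genes 15 were present (83.3%, against the same 37.7%). After VIM and TGFBI the highest was CDH2, N-cadherin, at 104 and 105 TPM (36.5 in DMSO 3), 1072 and 608 times above CDH1. CALD1, an actin-binding caldesmon (103, 99.9 and 22.2 TPM), and the collagen crosslinker LOX (98.1, 96.4 and 29.6 TPM) were close to CDH2. The factors that drive a mesenchymal state were lower, with SNAI2 at 15.2 and 14.3 TPM (4.35 in DMSO 3), TWIST1 at 14.5 and 13.2 TPM (11.6 in DMSO 3), ZEB2 at 10.1 and 8.29 TPM (0.959 in DMSO 3) and ZEB1, which departed most in DMSO 3, at 16.9 and 12.3 TPM (1.74 in DMSO 3). SPARC and PRRX1 were under 1 TPM.

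**Figure D3:**
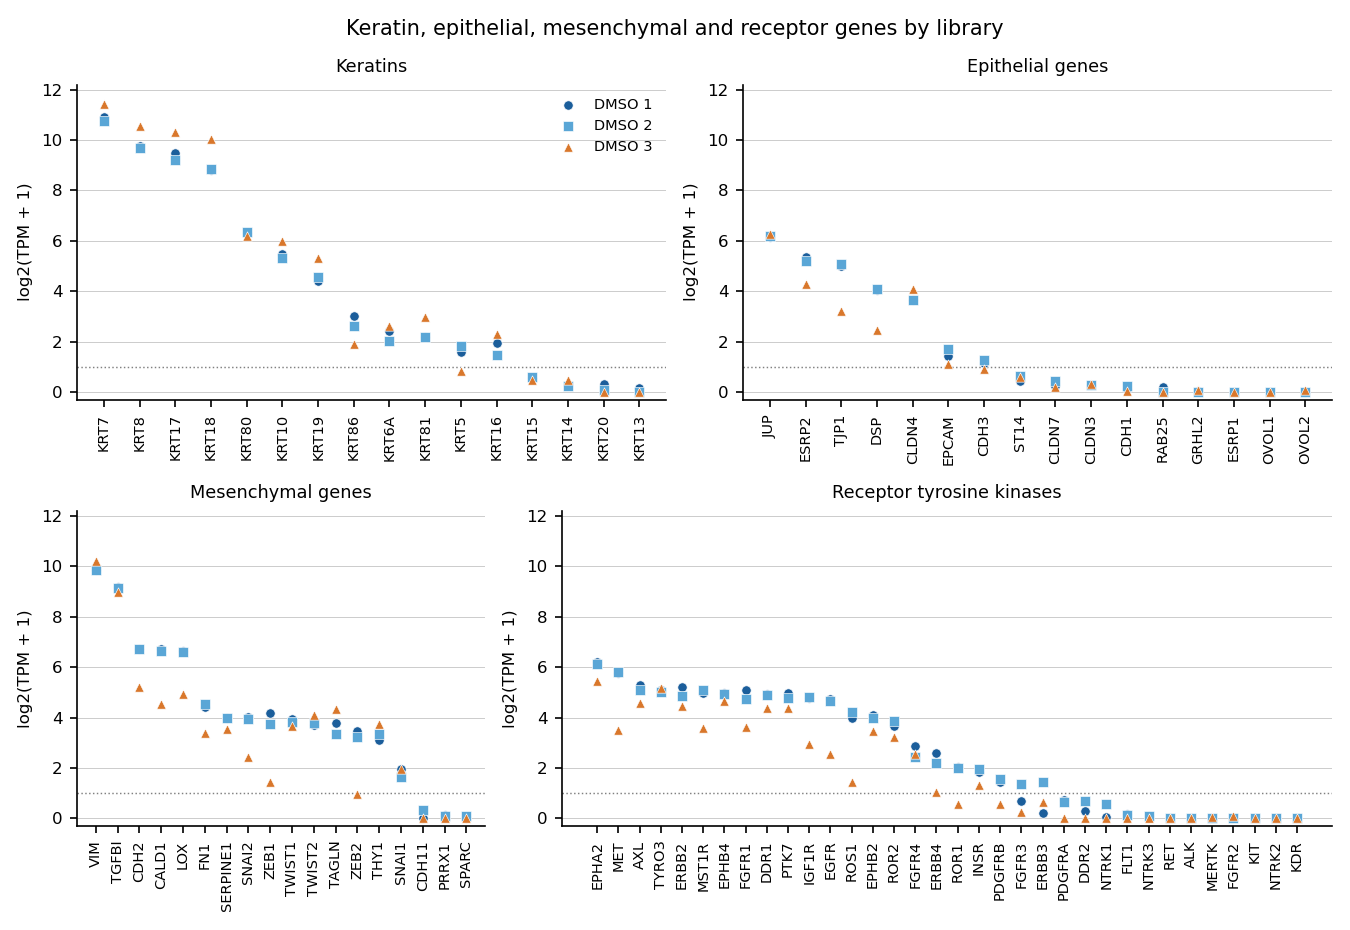
Levels of keratins, epithelial genes, mesenchymal genes and receptor tyrosine kinases as log2(TPM + 1), ordered within each panel by the mean of DMSO 1 and DMSO 2, 1 point per library, with a dotted line at 1 TPM. The 4 highest keratins lie above 100 TPM, CDH1 lies near 0, CDH2 near 104 TPM, and the triangles of DMSO 3 fall below the others for most receptors.

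Among 34 receptor tyrosine kinases 21 were present (61.8%, against 37.7% of all symbols) and none reached 100 TPM. EPHA2, an ephrin receptor (72.5, 68.4 and 43.1 TPM), MET, the receptor of hepatocyte growth factor (53.7, 55.6 and 10.4 TPM), and AXL, the receptor of GAS6 (37.9, 33.1 and 22.9 TPM), were highest. The growth factor receptors ERBB2 (35.8, 27.8 and 21.2 TPM), FGFR1 (33.1, 25.3 and 11.5 TPM), IGF1R (26.6, 26.9 and 6.75 TPM) and EGFR (25.6, 24 and 4.83 TPM) lay close together, and the ranges of ERBB2 and FGFR1 over the main libraries overlapped. ROS1 was at 14.7 and 17.7 TPM (1.7 in DMSO 3) and departed most in DMSO 3. KIT, a receptor often found in classic small cell tumours, had 0 counts in every library, as did KDR, NTRK2 and ALK, and RET had 1, 1 and 0.

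Of 32 secreted peptides and growth factors 17 were present (53.1%, against 37.7% of all symbols) and 12 had 0 counts in all libraries. The neutrophil chemokine CXCL8 led with 199.7 TPM in DMSO 1, 232 TPM in DMSO 2 and 58.9 TPM in DMSO 3. The neuropeptide GAL, galanin, was next at 133 and 123 TPM (251 in DMSO 3), and the angiogenic factor VEGFA measured 99.2 and 92.9 TPM (25 in DMSO 3). IL6, an inflammatory cytokine, was at 67.3 and 67.8 TPM (25.2 in DMSO 3), GREM1, an antagonist of bone morphogenetic proteins, at 31.6 and 32.2 TPM (10.9 in DMSO 3) and the peptide adrenomedullin (ADM) at 25.6 and 32 TPM (21.4 in DMSO 3). Besides GRP, the hormones CALCA, POMC, AVP, SST and VIP had no counts, although some are made by small cell tumours. VEGFA departed most in DMSO 3, and GAL was higher there while CXCL8 was lower.

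Surface antigens that serve as drug targets were present in 13 of 21 cases (61.9%, against 37.7% of all symbols). FOLR1, the folate receptor of ovarian and lung adenocarcinoma, measured 499 TPM in DMSO 1, 492 TPM in DMSO 2 and 688 TPM in DMSO 3 at rank 230. CD24, a mucin-like antigen (358, 393 and 147 TPM), CD44, the hyaluronan receptor (271, 275 and 192 TPM), and the neural adhesion molecule L1CAM (138, 131 and 58.3 TPM) followed. CD276, an immune checkpoint ligand, was at 75.4 and 67 TPM (75.6 in DMSO 3). Against these, SEZ6, CEACAM5 and the somatostatin receptor SSTR2 were under 1 TPM, with SSTR2 at 0.497 and 0.338 TPM (0.0708 in DMSO 3). MET departed most in DMSO 3. The checkpoint ligand CD274 was at 0.0885 TPM in DMSO 1, 1.37 TPM in DMSO 2 and 0.375 TPM in DMSO 3, from 4, 5 and 4 counts.

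Tumour suppressor genes were present in 21 of 21 cases (100%, against 37.7% of all symbols), but RB1 was the lowest. RB1, the brake on entry into S phase, was at 1.74 and 1.16 TPM (0.141 in DMSO 3) from 16, 9 and 2 counts. Its relatives RBL2 (34.7, 34.2 and 5.78 TPM) and RBL1 (12.5, 12 and 1.77 TPM) were higher, RBL2 by 19.96 and 29.6 times. CDKN2A, whose products p16 and ARF are not separated by symbol, was the highest at 305 and 289 TPM (507 in DMSO 3), 176 and 250.4 times above RB1. CDKN1A, the CDK inhibitor p21, measured 48.9 and 50.3 TPM (55.3 in DMSO 3). A messenger level says nothing of mutations, which were not analysed here.

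The chromatin regulators in this list ranged widely. KMT2D, a histone H3 methyltransferase, was at 44.7 and 45.8 TPM (9.26 in DMSO 3) and its relative KMT2C at 9.8 and 9.14 TPM (0.928 in DMSO 3). The acetyltransferase CREBBP was at 28.7 and 28.7 TPM (4.81 in DMSO 3), while its relative EP300 differed between the main libraries at 30.8 and 17 TPM (2.94 in DMSO 3) and departed most in DMSO 3. KDM6A, a histone demethylase, was at 13.8 and 11.2 TPM (1.42 in DMSO 3) and ARID1A, a subunit of SWI/SNF complexes, at 25.5 and 21.2 TPM (6.06 in DMSO 3). Of the exchangeable SWI/SNF motors SMARCA2 (42.7, 38.9 and 15.7 TPM) stood 8.37 and 7.23 times above SMARCA4 (5.11, 5.38 and 1.05 TPM). The RAS regulator NF1 was at 32 and 31.3 TPM (4.32 in DMSO 3), the CDK inhibitor CDKN1B at 31.9 and 35.9 TPM (11.6 in DMSO 3) and KEAP1, the sensor that restrains NRF2, at 42 and 44.5 TPM (48.4 in DMSO 3). STK11, the LKB1 kinase (2.53, 1.51 and 1.26 TPM), TP73 (2.22, 1.82 and 1.23 TPM) and FHIT (1.76, 1.56 and 1.84 TPM) were low with RB1. Of the 21 genes 17 were lower in DMSO 3, 13 of them at least 2-fold on the log2(TPM + 1) scale.

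Among 12 regulators of the G1 phase 11 were present (91.7%, against 37.7% of all symbols). CDK4, the kinase partner of D-type cyclins, led with 228 and 242 TPM (306 in DMSO 3), then CCND3 (167, 188 and 229 TPM) and CDK2 (122, 118 and 72.1 TPM). CCND1 was at 113 and 119 TPM (36.7 in DMSO 3), close to CDK2, whereas CCND2 had 2, 0 and 0 counts. EZH2, the Polycomb methyltransferase and a target of E2F factors, was at 56.2 and 50.6 TPM (16.6 in DMSO 3), E2F1 at 28.7 and 29.8 TPM (28 in DMSO 3) and CCNE1 at 29.9 and 30.4 TPM (23.2 in DMSO 3). CCNE2 departed most in DMSO 3 (27.6, 31.7 and 4.44 TPM), where CCNE1 was nearer to its level in the other libraries.

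HOX genes, which record position along the body axis, separated by cluster. Of 39 genes 21 were present (53.8%, against 37.7% of all symbols). By cluster these were 6 of 11 in HOXA, 8 of 10 in HOXB, 7 of 9 in HOXC and 0 of 9 in HOXD. At 5 TPM or more the number over all clusters was 9. By DMSO 3 alone 4 HOXA, 6 HOXB, 5 HOXC and 0 HOXD genes were at 1 TPM or more. In HOXA the 6 present genes were HOXA6, HOXA7, HOXA9, HOXA10, HOXA11 and HOXA13, with HOXA6 near the line at 0.83 and 1.7 TPM (0.44 in DMSO 3), while HOXA2 to HOXA5 averaged under 1 TPM. HOXC10 was the highest of all at 74.2 and 71.4 TPM (54.7 in DMSO 3), 3.45 and 3.33 times above HOXB7 (21.5, 21.4 and 17.1 TPM), and HOXB6 (19.3, 19.2 and 2.28 TPM) was next. Summed over each cluster the levels were 44.1 and 44.6 TPM for HOXA (24.6 in DMSO 3), 61.7 and 60.8 TPM for HOXB (30.4), 108 and 107 TPM for HOXC (74.2) and 0.147 and 0.126 TPM for HOXD (0.174). The order of the cluster sums was the same in all 3 libraries. HOXB6 departed most in DMSO 3, and since no source states that strand was used, reads of antisense genes in these clusters cannot be told apart.

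**Figure D4:**
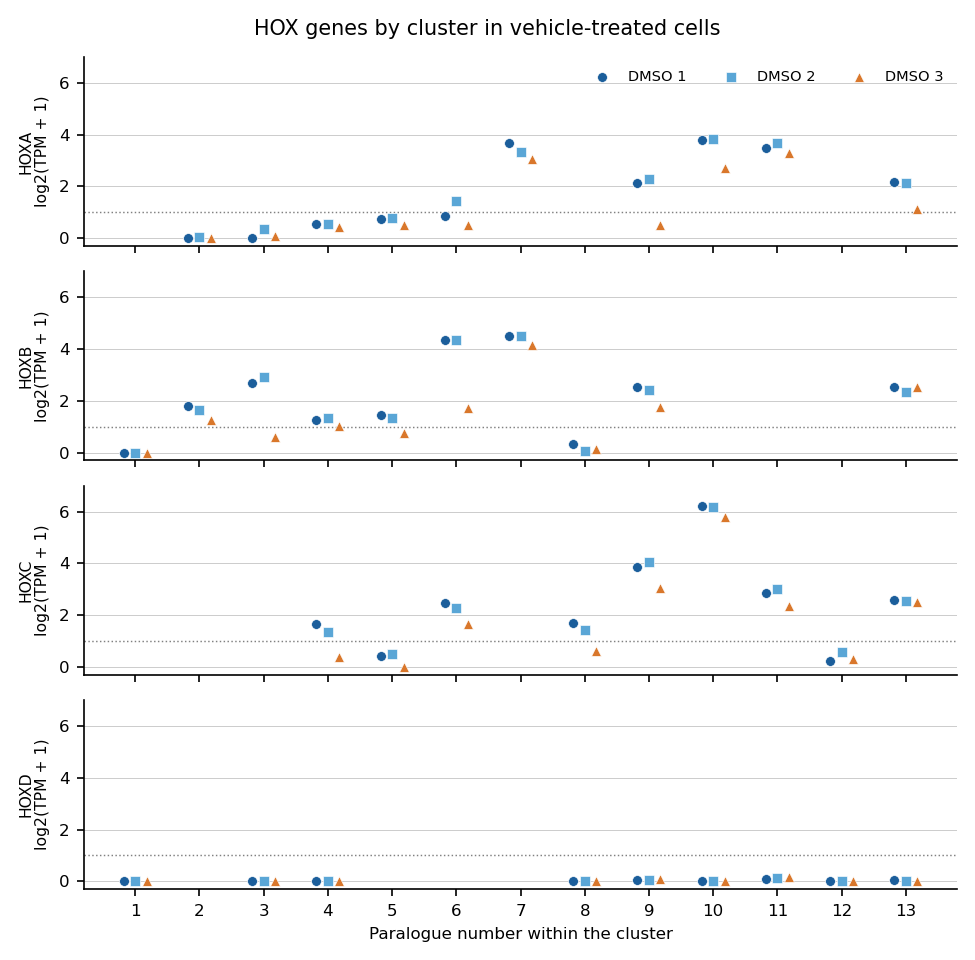
Levels of the reported HOX genes by cluster (rows) and paralogue number (x axis) as log2(TPM + 1), 1 point per library, with a dotted line at 1 TPM. HOXC10 is the highest point, the plotted HOXA genes that average 1 TPM or more begin at number 6, and every HOXD gene lies near 0.

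Antigen presentation was largely present, with 18 of 19 genes at 1 TPM or more (94.7%, against 37.7% of all symbols). B2M, the light chain of class I molecules, measured 4266 TPM in DMSO 1, 4127 TPM in DMSO 2 and 2008 TPM in DMSO 3, among the 20 most abundant symbols. The chaperone CALR (1026, 977 and 1062 TPM) followed, with HLA-C at 185 and 177 TPM (238 in DMSO 3) and HLA-B at 121 and 118 TPM (162 in DMSO 3). HLA genes are highly variable and similar, so counts split between them are uncertain. The peptide transporter TAP1 was at 15.5 and 15.4 TPM (11.3 in DMSO 3) and the immunoproteasome subunit PSMB9 at 3.05 and 3.3 TPM (4.55 in DMSO 3), under its partner PSMB8 (68.7, 67.1 and 108 TPM). Class II genes were low, with HLA-DRA at 4.63 and 4.7 TPM (4.32 in DMSO 3), and their activator CIITA was at 1.31 and 2.21 TPM (0.624 in DMSO 3). ERAP1, a peptide-trimming enzyme, departed most in DMSO 3 (22.3, 20.8 and 5.73 TPM).

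Genes of the innate sensing of nucleic acid, both sensors and their signalling partners, were present in 9 of 10 cases (90%, against 37.7% of all symbols). IRF3, a transcription factor of this response (94.2, 91.7 and 87.4 TPM), IFI16, a DNA sensor (68.6, 75.6 and 33.9 TPM), and TMEM173 (STING), the adaptor of cytosolic DNA sensing (34.1, 35.7 and 30.1 TPM), were highest. MB21D1 (cGAS), the enzyme upstream of STING, was at 13.4 and 14.2 TPM (5.45 in DMSO 3). AIM2 was under 1 TPM. ZBP1 (17.1, 24.6 and 1.79 TPM) departed most in DMSO 3 but rests on 22, 27 and 7 counts.

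Cancer-testis genes, which are silent in most adult tissues, were nearly all absent (14.3% present, against 37.7% of all symbols). Only 3 of 21 were present, led by MAGEA1 at 97.4 TPM in DMSO 1, 96.9 TPM in DMSO 2 and 75.4 TPM in DMSO 3 and PRAME at 33.5 and 26.5 TPM (23.1 in DMSO 3), with PAGE1 near the line at 0.652 and 2.41 TPM (1.32 in DMSO 3). MAGEA1 was 2.91 and 3.66 times above PRAME and 3.26 times in DMSO 3. Its close relatives MAGEA3, MAGEA4, MAGEA6, MAGEA10 and MAGEA12 had at most 3 counts in any library.

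Oncofetal genes were present in 5 of 13 cases (38.5%, against 37.7% of all symbols). HMGA1, a chromatin architectural protein, measured 371 and 376 TPM (511 in DMSO 3), while its relative HMGA2 was at 0.104 and 0.216 TPM (0.368 in DMSO 3). The fetal RNA-binding protein IGF2BP3 (64.8, 61.1 and 7.58 TPM) and the imprinted PEG10 (48.5, 51.4 and 32.6 TPM) followed, with IGF2BP1 at 14.6 and 15.6 TPM (6.31 in DMSO 3). IGF2BP3 departed most in DMSO 3, where it lay only 1.201 times above IGF2BP1, against 4.43 and 3.93 times in the others. LIN28A, LIN28B, IGF2, DLK1 and AFP were under 1 TPM, and H19 and MEG3 were not analysed here. Of the 15 genes chosen for this list 13 were found among the symbols. All 5 telomere genes found were present. DKC1, a pseudouridine synthase of telomerase RNA, was at 221 and 226 TPM (151 in DMSO 3), DAXX at 59.7 and 47.3 TPM (51.7 in DMSO 3), and TERT, the catalytic subunit of telomerase, at 16.5 and 12.6 TPM (3.13 in DMSO 3). ATRX, a chromatin remodeller that partners DAXX, was at 51.3 and 53.8 TPM (3.49 in DMSO 3), the widest departure of DMSO 3 among the members of all 32 lists.

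Targets and modifiers of chemotherapy were present in 21 of 22 cases (95.5%, against 37.7% of all symbols). PARP1, a DNA break sensor (309, 294 and 181 TPM), XRCC5, a subunit of the Ku complex (294, 307 and 224 TPM), and TOP2A, the target of etoposide (195, 208 and 50.1 TPM), were highest. TOP1, the target of topotecan, was at 70 and 71.8 TPM (24.8 in DMSO 3). SLFN11, whose level is known to go with response to DNA-damaging drugs, was near the line at 1.07 and 1 TPM (0.312 in DMSO 3). BCL2, which is high in many small cell tumours, was at 1.98 and 1.94 TPM (0.445 in DMSO 3), under its relatives MCL1 (153, 161 and 68.6 TPM) and BCL2L1 (41.4, 43.9 and 40.7 TPM). The mitotic kinases AURKB (125, 121 and 127 TPM) and AURKA (91, 82.2 and 69.1 TPM) were abundant. ABCC1 was the main drug efflux gene of the 3 listed, at 65 and 64.4 TPM (23.2 in DMSO 3), with ABCB1 at 8.04 and 5.36 TPM (1.62 in DMSO 3) and ABCG2 at 0.442 and 0.589 TPM (0.29 in DMSO 3). ATM departed most in DMSO 3 (33, 34.7 and 3.81 TPM).

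Integrins and basement membrane genes, with which adherent cells hold to their matrix, were present in 21 of 23 cases (91.3%, against 37.7% of all symbols). Of these 19 reached 10 TPM. ITGB1, the common beta chain, measured 593 TPM in DMSO 1, 603 TPM in DMSO 2 and 103 TPM in DMSO 3, the laminin chain LAMA5 239.7 and 169 TPM (45.5 in DMSO 3) and ITGA5, the fibronectin receptor, 167 and 155 TPM (146 in DMSO 3). ITGA4 and ITGB3 were under 1 TPM. All 21 present genes were lower in DMSO 3, 15 of them at least 2-fold, with a median departure of -1.91 on the log2 scale, against -0.92 over all 13161 present genes. Presence was set by DMSO 1 and DMSO 2, which favours lower values in DMSO 3 on both sides. COL4A5, a collagen of basement membranes, departed most (75.3, 70.5 and 5.52 TPM). The median relative transcript length of this list was 2.12, so long transcripts are common in it.

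Markers of other cell types were measured for the same libraries. The shares present were 70% of fibroblast, 10% of immune, 28.6% of endothelial and 30% of alveolar and airway markers, against 37.7% of all symbols. Of 10 fibroblast markers 7 were present, led by the proteoglycans DCN (22.3, 18.7 and 7.82 TPM) and LUM (14.3, 16.1 and 2.18 TPM) and the protease FAP (14.4, 11.5 and 3.01 TPM), with COL1A1 at 10 and 8.29 TPM (2.95 in DMSO 3) and COL1A2, its partner chain, at 0.0518 and 0.0645 TPM (0 in DMSO 3). Their summed level was 69.3, 63.1 and 20.2 TPM, and POSTN was near 0. Among 10 immune markers CD68, a lysosomal protein (25.3, 24 and 23.8 TPM), was the only one present, with the pan-leukocyte PTPRC at 0.737 and 0.641 TPM (0.114 in DMSO 3) and CD2, CD3E, MS4A1 and NKG7 at 0 counts. Of 7 endothelial markers ERG (8.37, 8.3 and 2.29 TPM) and PECAM1 (3.77, 3.97 and 1.56 TPM) were present, while CLDN5 and KDR had no counts and VWF had 0, 2 and 1. The alveolar and airway markers held 3 of 10, with the secretoglobin SCGB3A2 at 27.4 and 19.6 TPM (2.03 in DMSO 3), AGER at 4.24 and 3.61 TPM (1.76 in DMSO 3) and KRT5, and SFTPA1, SCGB1A1 and FOXJ1 had no counts. All 14 reference genes were present, down to TBP (20.7, 16.8 and 7.53 TPM), which departed most in DMSO 3. The part of other cells in any result was not tested.

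DMSO 3 held NEUROD1, INSM1 and GRP at 0 like the other libraries, and over all present genes its departure from their levels went with transcript length. Of all 13161 present genes 82.1% had a lower level in DMSO 3 than the average of the other libraries, with a median departure of -0.92 in log2(TPM + 1). Genes raised in DMSO 3 from under 1 TPM are left out, since presence was set by the other libraries, so this share is in part set by the choice. In 5 equal classes of relative transcript length (counts per TPM over the median) the median departure was -0.25, -0.53, -0.80, -1.11 and -1.47 from the shortest to the longest. Among list members in the same classes it was -0.20, -0.32, -0.56, -0.82 and -1.54, with all 76 members of the longest class lower. The 78 ribosomal protein genes, mostly short, were higher by a median of 0.74, whereas the 13 mitochondrial messengers, with a median relative length of 0.244, were all lower, by a median of -0.90. Levels of long genes such as ATRX and short genes such as S100A10 (246, 269 and 489.5 TPM) in DMSO 3 are therefore given beside the others and not averaged with them. The cause of the departure was not tested.

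**Figure D5:**
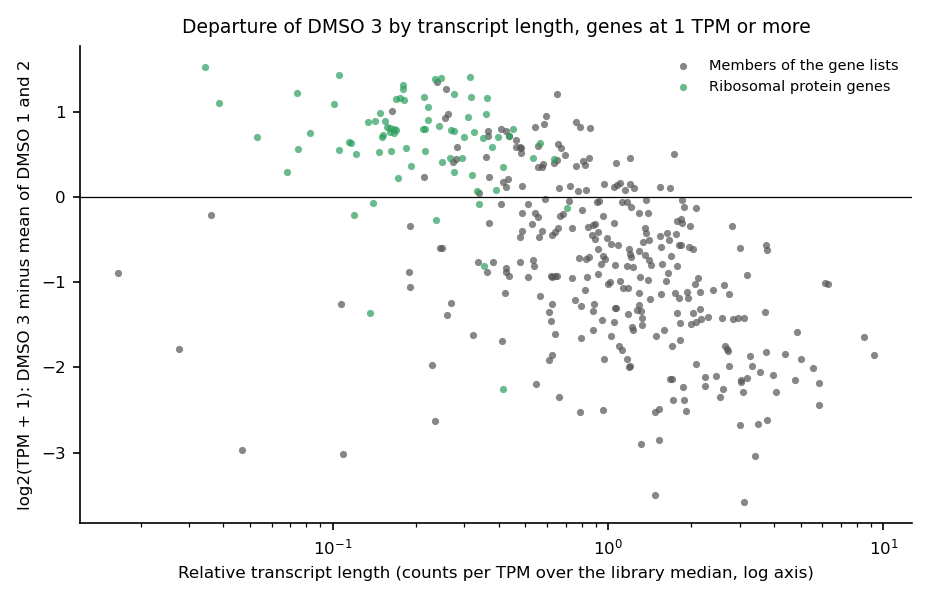
Departure of DMSO 3 from the mean of DMSO 1 and DMSO 2 in log2(TPM + 1) against relative transcript length (log axis) for list members at 1 TPM or more (grey) and ribosomal protein genes (green), 1 point per gene. A few list members are not plotted. Points drift downward with length, from class medians of -0.20 to -1.54 among list members.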

How the data were processed

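Messenger RNA of 3 DMSO libraries was analysed from 2 tables. The authors deposited TPM values per gene symbol and estimated counts rounded to whole numbers, both with bcl2fastq, kallisto 0.46.1 and GRCh38 named in the submitters' processing notes. In each library 32 to 51 genes combine a count of 0 with a positive TPM. The annotation and the step from transcripts to genes were not given in the sources used here.

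From the deposited TPM the mean of DMSO 1 and DMSO 2, ranks over 34886 symbols and numbers of list members at 1 TPM or more were computed (Python 3.11.15, pandas 2.3.3), and the functions were tested on simulated data with known answers. CPM divide counts by the library total. There was 1 group and no contrast, so no test was run. Members and lists (32 lists, and 4 more of universal genes chosen after their values were seen) were chosen with earlier results of these data known. Some members are not reported here, though list counts and medians include them. The text names the other members of 5 short lists, the 3 highest of the others with some well-known absent members, the 20 most abundant symbols and the member that departs most in DMSO 3. Other members were named as background to these after their values were seen. RefSeq (GRCh38.p14) held 26157 of the symbols. Alternatives tried were each library alone, all 3 averaged, thresholds of 0.5 and 5 TPM, CPM, a pseudocount of 0.1, a filter on low values and a scale without mitochondrial messengers. The treated and miRNA libraries were not used here.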

Additional observations from a re-analysis of the deposited data

How the results depend on the processing

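No paired analysis was possible because the values come from 1 group and no test. The number of present genes was 13120 to 13193 from either main library alone, 12751 with all 3 averaged, 10386 at 5 TPM, 14377 at 0.5 TPM and 12581 at 1 CPM. The number of list members present ran from 253 at 5 TPM to 333 at 0.5 TPM around 316. The excess of neuroendocrine-low over neuroendocrine-high genes, 5.58 on the log2 scale, kept its sign in each setting, with 5.49 for all 3 libraries averaged, 7.78 with a pseudocount of 0.1, 3.66 over members at 1 TPM or more and 5.96 with log2(CPM + 1). Among single lists the number of members present moved by more than 1.5-fold in 7 of 32 at 5 TPM and in 1 at 0.5 TPM. At 5 TPM these were filament genes (5 to 3), the tuft cell programme (2 to 0), Notch and REST (7 to 3) and HOX genes (21 to 9). Fibroblast (7 to 4), endothelial (2 to 1) and alveolar and airway markers (3 to 1) made up the rest. At 0.5 TPM it was the immune cell markers (1 to 2). Rescaling without mitochondrial messengers raised 112 named genes at 1 TPM or more by at most 1.14-fold. Ranks by CPM differed by more than 1.5-fold from ranks by TPM for 66 of 135 named genes, since CPM keeps transcript length. Among the 119 genes at 1 TPM or more that the naming rule chose, leaving out DMSO 1 or DMSO 2 moved PAGE1 by over 1.5-fold, from 1.53 TPM to 2.41 and 0.652 TPM. Of genes at 1 TPM or more named outside that rule, HOXA6, RAPGEF2, FOXP1, GPX1, RP11-641D5.1 and AC010970.2 also moved by over 1.5-fold. Genes averaging under 1 TPM were not part of this, and CD274 and NKX2-1 among them moved by over 1.5-fold too. Depth limits genes near 0 counts.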

Other observations

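Some symbols of universal genes were listed far below their class. Of 78 ribosomal protein genes, with a median of 1453 TPM, RPS24 was at 7.183 and 13.39 TPM (14.96 in DMSO 3), RPL5 at 12.96 and 13.41 TPM (1.981 in DMSO 3), RPS27 at 17.31 and 16.35 TPM (16.01 in DMSO 3) and RPS14 at 29.8 and 27.3 TPM (15.84 in DMSO 3). ACTG1 stood 125 and 117 times above ACTB, and 178 times in DMSO 3. All 14 core proteasome subunits lay at 126 TPM or more and all 12 subunits of RNA polymerase II at 30.1 TPM or more. These genes were chosen after their values were seen.

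DMSO 1 and DMSO 2 differed at least 2-fold in 30 of 8766 genes at 10 TPM or more, 20 of them higher in DMSO 2. In 10 of the 30 the CPM agreed within 1.5-fold, so the counts per TPM differed between the libraries. RAPGEF2, an exchange factor for RAP proteins, had 285 and 298 counts but 22.4 and 9.81 TPM, and FOXP1, a forkhead factor, had 313 and 336 counts but 9.41 and 19.1 TPM. The selenoprotein GPX1 had 63 and 166 counts and 8.06 and 21.6 TPM. The widest gap of the 30 was that of RP11-641D5.1, with 1 and 79 counts and 0.822 and 56.9 TPM. The most abundant of them, AC010970.2, had 22431 and 59297 counts and 1083 and 2855 TPM.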
